A study of Homo sapiens with 6 samples.

Results

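The genes described here are 33 genes of glycolysis and the pentose phosphate pathway, with the glucose and lactate carriers and the regulatory kinases that belong to them. They were listed by function, and the rule that lists them uses no measured value. The list was, however, chosen with earlier results of these data known. Each gene was read from its single-gene probe set with the highest mean, which gave a value to 31 of the 33 among 14428 genes tested on the arrays. The lactate carrier genes SLC16A1 and SLC16A3 had no single-gene probe set in the annotation used and were not analysed here.

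Glycolysis splits glucose into pyruvate through a chain of cytosolic enzymes, and cells regenerate its cofactor by turning pyruvate into lactate. The pentose phosphate pathway branches off at glucose 6-phosphate and yields NADPH and ribose 5-phosphate for nucleotide synthesis. Many tumour cells, melanoma among them, run glycolysis to lactate even where oxygen is present, and several of these genes are known targets of hypoxia-inducible factor and MYC.

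All 6 arrays carried RNA of A2058, an established human melanoma cell line, in 3 lines: one overexpressing wild-type TET2 (TET2WT), one overexpressing a construct that the labels call TET2M, and a Mock line. TET2 encodes a dioxygenase that turns methylcytosine into hydroxymethylcytosine. Lines were kept for 7 days in DMEM holding either 4.5 g/L glucose (high) or 1 g/L (normal), with 1 array for every combination of line and medium. The sources used here do not give the promoter that drives the constructs, the change carried by TET2M, or whether a line is 1 clone.

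The arrays had medians between 2.96 and 3.03 on the log2 scale, and their number limits the precision of every value. The TET2 probe set with the highest mean read 9.54 and 9.68 in TET2WT at high and normal glucose, 7.57 and 7.37 in TET2M, and 3.81 and 4.13 in Mock. Another read 6.64 and 6.87 in TET2WT, 4.57 and 3.89 in TET2M, and 2.10 and 2.64 in Mock. On both, the overexpressing lines stood above Mock and TET2M below TET2WT, so construct and TET2 level differ together. A further TET2 probe set did not separate the lines (5.15 to 5.41). Of 7 melanocytic markers measured, 5 lay above the low level of 2.64, among them SOX10 (9.38 to 9.65) and MITF (6.30 to 6.96), while MLANA and TYR did not exceed it. Of the other lists, 4 of 4 keratinocyte, 4 of 5 fibroblast, 3 of 4 endothelial and 1 of 3 blood markers also lay above that level. The keratin gene KRT10 read 9.23 to 9.39, the blood marker CD3E 2.52 to 2.93 and PTPRC 1.98 to 2.22. Passing the low level thus does not tell cell types apart. These are bulk samples, in which fewer cells of a type and less RNA per cell cannot be told apart. A difference is a log2 difference, ± is limma's standard error, and a gene passed when limma's p, adjusted over all genes tested, was under 0.05. No combination was measured more than once, so the spread behind the p-values is how far single arrays depart from the fitted terms. In the main model, with terms for line and glucose, it mixes scatter that may be technical with glucose responses that differ between lines. No spread between cultures of 1 line was measured.

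All 31 genes passed the low level by their mean, as the filter required, and 0 of their values on any array lay below it. That level is not a detection call. Their values moved little over the 6 arrays. The distance between the lowest and the highest array had a median of 0.32 over these genes, against 0.38 over all genes tested. The 2 sets differ in level, with medians of 8.615 and 5.66, so this comparison is not at like signal. The distance ran between 0.09 for LDHB, a lactate dehydrogenase subunit, and 1.27 for ALDOC. Only ALDOC, ENO2 (1.03) and PFKFB3 (0.94) came close to or exceeded a 2-fold spread.

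Promoters of these genes and of PFKFB4 are printed here as sequences only, and their part in any difference was not tested. Each is the RefSeq window of 300 bases on GRCh38.p14, 250 before and 50 after the annotated start, read 5′ to 3′ on the gene's strand. Capitals mark ACGTG or GCGTG on either strand, the core letters of the hypoxia response element; CACGTG, the E-box bound by MYC, contains ACGTG and may be marked on both strands at once. ALDOC lies on the minus strand at chr17:28576846-28577145, with 5 matches. ENO2 lies on the plus strand at chr12:6914330-6914629, with 1 match. PFKFB3 has a plus-strand window at chr10:6144671-6144970 with 1 match and another at chr10:6202682-6202981 with 2. PFKFB4 lies on the minus strand at chr3:48556754-48557053, with 1 match.
ALDOC: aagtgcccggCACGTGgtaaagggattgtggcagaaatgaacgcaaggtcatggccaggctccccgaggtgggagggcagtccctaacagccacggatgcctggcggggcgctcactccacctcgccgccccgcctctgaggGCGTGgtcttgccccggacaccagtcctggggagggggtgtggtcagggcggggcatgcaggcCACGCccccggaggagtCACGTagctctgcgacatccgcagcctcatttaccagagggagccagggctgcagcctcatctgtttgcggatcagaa
ENO2: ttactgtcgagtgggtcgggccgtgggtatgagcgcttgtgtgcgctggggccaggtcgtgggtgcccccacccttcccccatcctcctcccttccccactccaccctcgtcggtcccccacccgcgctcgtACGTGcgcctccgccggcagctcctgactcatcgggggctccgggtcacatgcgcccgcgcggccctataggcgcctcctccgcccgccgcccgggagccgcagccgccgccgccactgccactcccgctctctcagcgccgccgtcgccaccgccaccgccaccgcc
PFKFB3 upstream start: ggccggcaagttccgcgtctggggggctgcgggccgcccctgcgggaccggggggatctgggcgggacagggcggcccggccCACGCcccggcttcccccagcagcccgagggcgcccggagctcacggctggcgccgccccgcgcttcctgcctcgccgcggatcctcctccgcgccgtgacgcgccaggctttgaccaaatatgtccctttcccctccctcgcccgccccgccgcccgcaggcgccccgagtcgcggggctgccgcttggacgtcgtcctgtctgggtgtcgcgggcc
PFKFB3 downstream start: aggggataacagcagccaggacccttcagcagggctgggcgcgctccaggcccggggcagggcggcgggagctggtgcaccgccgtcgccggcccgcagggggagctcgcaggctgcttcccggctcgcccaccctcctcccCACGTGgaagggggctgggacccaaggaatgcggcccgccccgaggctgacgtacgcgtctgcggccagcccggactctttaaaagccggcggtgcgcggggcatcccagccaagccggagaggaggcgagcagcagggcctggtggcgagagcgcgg
PFKFB4: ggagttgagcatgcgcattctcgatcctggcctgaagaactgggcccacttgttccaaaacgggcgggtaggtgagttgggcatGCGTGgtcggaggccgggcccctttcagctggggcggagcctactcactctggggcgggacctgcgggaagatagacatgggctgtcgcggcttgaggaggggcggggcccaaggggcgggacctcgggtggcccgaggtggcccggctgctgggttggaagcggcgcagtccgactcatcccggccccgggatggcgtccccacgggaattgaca

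RefSeq windows were found for 30 of the 33 genes, 57 windows in all, and not for SLC2A3, PFKFB2 and SLC16A1. ACGTG or GCGTG stood in 61.4% of these 57 windows and in 48.4% of 35114 windows of all genes. For ACGTG alone the shares were 36.8% and 21.4%, for GCGTG 40.4% and 36.5%, and for CACGTG 12.3% and 7.26%. Windows of 1 gene can overlap, and a match describes letters in the window, not a bound site.

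**Figure D1:**
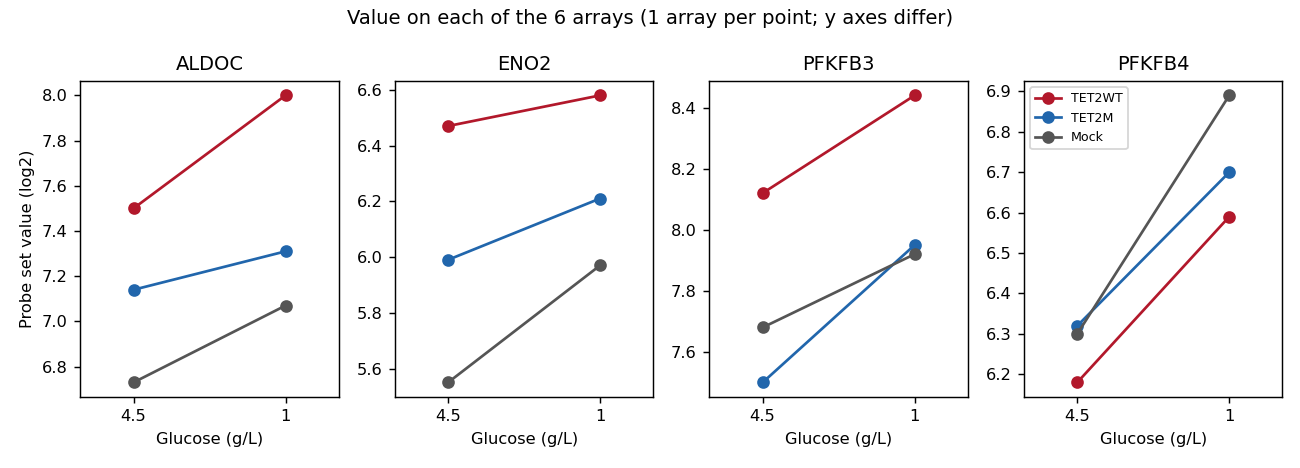
Probe set value (log2, y axes differ) of ALDOC, ENO2, PFKFB3 and PFKFB4 against glucose (4.5 and 1 g/L) in TET2WT, TET2M and Mock, 1 array per point and a line joining the 2 arrays of a cell line. ALDOC and ENO2 were highest in TET2WT and lowest in Mock at both concentrations, and all 4 genes had lower values at high than at normal glucose in 3 of 3 lines.

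High against normal glucose was the first comparison, and it asked how the pathway's transcripts followed the sugar that feeds it. No member passed in limma (0 of 31; 0.00693% of all genes did), and 10 of 31 had an unadjusted p under 0.05, against 15.4% of all genes. When limma's variance was allowed to follow the signal level, 5 members passed, where 3.97% of all genes did. They were ALDOC, PFKFB3, PFKFB4, PGD and TKT, all lower at high glucose. The differences of the members leaned one way: 26 of 31 were negative, 83.9% against 55.7% of all genes, and their median was -0.10 against -0.02. Within the lines the median was -0.11 in TET2WT, -0.09 in TET2M and -0.08 in Mock. Values were lower at high glucose in 3 of 3 lines for 20 of 31 members, where 20.7% of all genes met that count. They were higher in 3 of 3 lines for SLC2A1, PGAM1 and TIGAR, where 16.7% of all genes did. No member differed 1.5-fold in every line (0.215% of all genes). The distance between the 3′ and 5′ control probe sets of ACTB, a measure of RNA integrity, was also larger at high glucose in each line, at 2.06 against 1.90 in TET2WT, 1.93 against 1.65 in TET2M and 2.02 against 1.94 in Mock. The same distance for GAPDH did not follow glucose in every line, at 0.35 against 0.25 in TET2WT, 0.28 against 0.28 in TET2M and 0.29 against 0.32 in Mock. The part of RNA integrity in the differences was not tested.

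**Figure D2:**
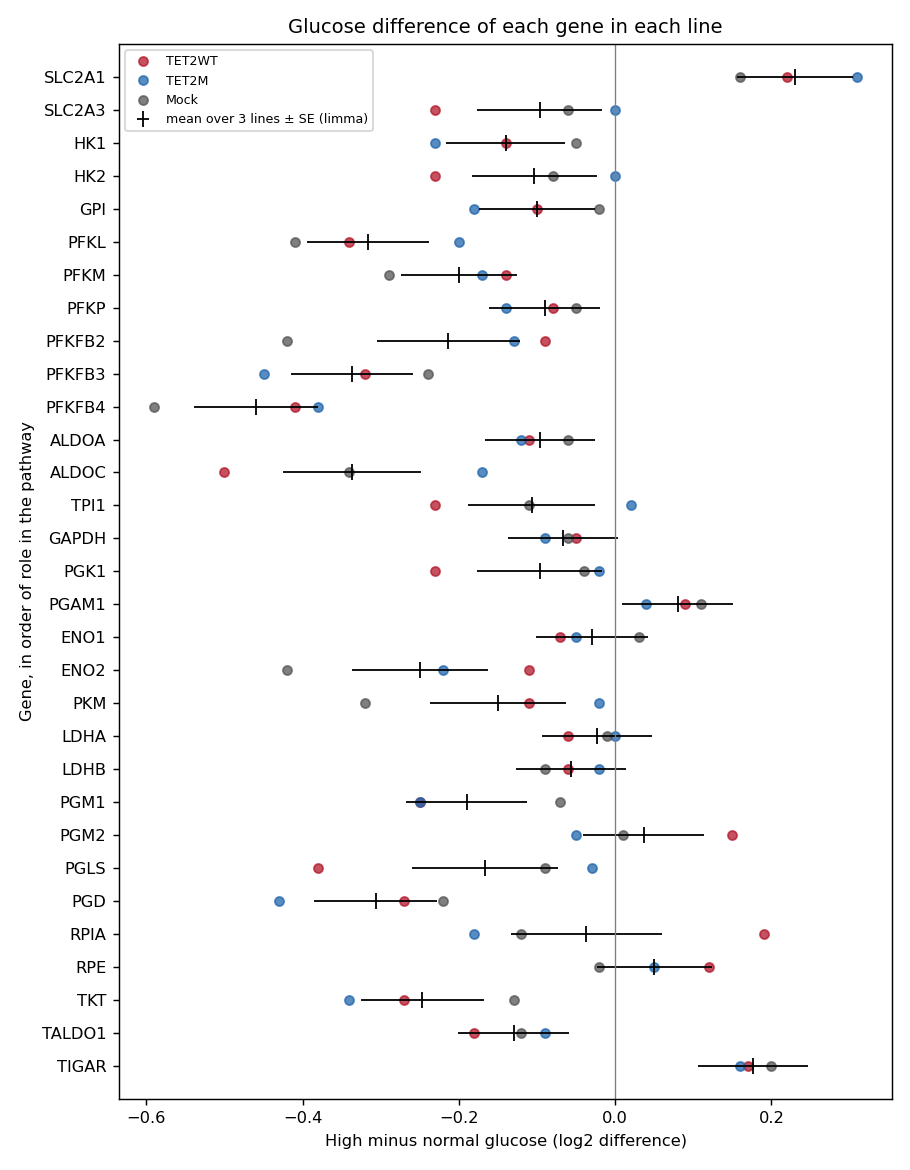
High minus normal glucose (log2 difference) for each of the 31 genes in order of role, as 1 point per line and the mean over the 3 lines ± SE (limma). Most points lie left of 0, PFKFB4 farthest at a mean of -0.46, and SLC2A1 and TIGAR lie right of 0 in all 3 lines.

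Neither glucose carrier passed. SLC2A1 encodes GLUT1, the basal glucose carrier of most cells, and SLC2A3 encodes GLUT3, a carrier of high affinity. SLC2A1 read between 7.03 and 7.51 and had a glucose difference of 0.23 ± 0.074 (adjusted p = 0.253, limma). SLC2A3 lay between 6.25 and 6.52 and had equal values at both concentrations in TET2M. Of the enzymes that trap and isomerise glucose, the hexokinases HK1 (8.32 to 8.63) and HK2 (8.54 to 8.77) and the isomerase GPI (9.18 to 9.65) had small negative differences, between -0.14 and -0.10. The other HK2 probe sets gave -0.36 and -0.46.

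The phosphofructokinase step, the main control point of glycolysis, held 3 of the 4 largest glucose differences, those of PFKFB4, PFKFB3 and PFKL. PFKFB3 and PFKFB4 are bifunctional enzymes that make and remove fructose 2,6-bisphosphate, the activator of phosphofructokinase, and both are known to be induced by hypoxia. PFKFB4 read 6.18 and 6.59 in TET2WT at high and normal glucose, 6.32 and 6.70 in TET2M, and 6.30 and 6.89 in Mock. Its 3 high-glucose values lay below all 3 normal-glucose values, and its difference of -0.46 ± 0.079 had the smallest adjusted p of the members (0.137, limma). Another PFKFB4 probe set gave -0.33. PFKFB3 stood at -0.34 ± 0.078 (adjusted p = 0.180, limma). Its value was lower at high glucose in 3 of 3 lines, though its groups overlapped because TET2WT stood above the other lines. PFKFB2, the isoform best known from heart, read 3.81 to 4.24, with -0.21 ± 0.092 (adjusted p = 0.340, limma) and 0.15 in another probe set. Among the phosphofructokinases themselves, PFKL (5.40 to 6.00) had -0.32 ± 0.078 (adjusted p = 0.191, limma) and PFKM (8.56 to 8.85) had -0.20 ± 0.075 (adjusted p = 0.292, limma). PFKP, which read 9.10 to 9.27, had -0.09. Another probe set of PFKL gave -0.0067.

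In lower glycolysis, 8 of 9 genes had negative glucose differences, with a median of -0.097. The aldolase ALDOC and the enolase ENO2, isoforms best known from brain, had the largest, at -0.34 ± 0.089 (adjusted p = 0.202, limma) and -0.25 ± 0.087 (adjusted p = 0.272, limma). The more widely expressed isoforms ALDOA (11.60 to 12.04) and ENO1 (11.82 to 11.97) had smaller differences. So did the triose phosphate isomerase TPI1 (11.42 to 11.74), GAPDH (13.20 to 13.34), which makes 1,3-bisphosphoglycerate, and the kinase PGK1 (11.73 to 11.96), which makes ATP from it. The mutase PGAM1 (11.31 to 11.67) was the 1 gene of this group with a positive difference, 0.08. The pyruvate kinase gene PKM (8.34 to 8.66) had -0.15, and another PKM probe set gave 0.22. The lactate dehydrogenase genes LDHA (12.51 to 12.62) and LDHB (12.25 to 12.34) had differences of -0.023 and -0.057.

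Of the phosphoglucomutases, PGM1 links glycolysis to glycogen and to sugar nucleotides, and PGM2 acts mainly on pentose phosphates. PGM1 (8.69 to 9.11) had a glucose difference of -0.19 and PGM2 (8.51 to 8.68) one of 0.037. In the pentose phosphate pathway, PGD, the dehydrogenase of 6-phosphogluconate that yields NADPH, read 6.88 to 7.33 and had -0.31 ± 0.079 (adjusted p = 0.196, limma). The transketolase TKT, which shuttles carbon units back to glycolysis, read 10.96 to 11.30 and had -0.25 ± 0.078 (adjusted p = 0.251, limma). On these probe sets both read lower at high glucose in 3 of 3 lines. The other probe sets gave -0.22 and -0.023 for TKT and -0.19 and -0.0033 for PGD. The other genes had smaller differences: the lactonase PGLS (8.23 to 8.61), the isomerase RPIA (6.73 to 7.41), the epimerase RPE (7.32 to 7.59) and the transaldolase TALDO1 (9.06 to 9.28). TIGAR, a phosphatase that lowers fructose 2,6-bisphosphate and so opposes the PFKFB kinases, had 0.18 (8.07 to 8.39 over the arrays) and was higher at high glucose in 3 of 3 lines.

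Against Mock, the TET2WT line had higher ALDOC and ENO2. These were the 2 of 31 members that passed in limma, where 4.21% of all genes did, and they were also the 2 that stood at least 1.5-fold apart at both concentrations (2.81% of all genes). ALDOC read 7.50 and 8.00 in TET2WT at high and normal glucose, 7.14 and 7.31 in TET2M, and 6.73 and 7.07 in Mock. Both TET2WT values lay above both Mock values, by 0.77 at high and 0.93 at normal glucose. The difference was 0.85 ± 0.11, or 1.80-fold (adjusted p = 0.0158, limma). ENO2 read 6.47 and 6.58 in TET2WT, 5.99 and 6.21 in TET2M, and 5.55 and 5.97 in Mock, again with no overlap between TET2WT and Mock. Its difference was 0.77 ± 0.11, or 1.70-fold (adjusted p = 0.0194, limma). With any 1 of the 6 arrays left out, both calls were lost, as were nearly all calls over all genes in this comparison. The difference then lay between 0.73 and 0.97 for ALDOC and between 0.64 and 0.89 for ENO2. Each rests on 1 probe set.

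**Figure D3:**
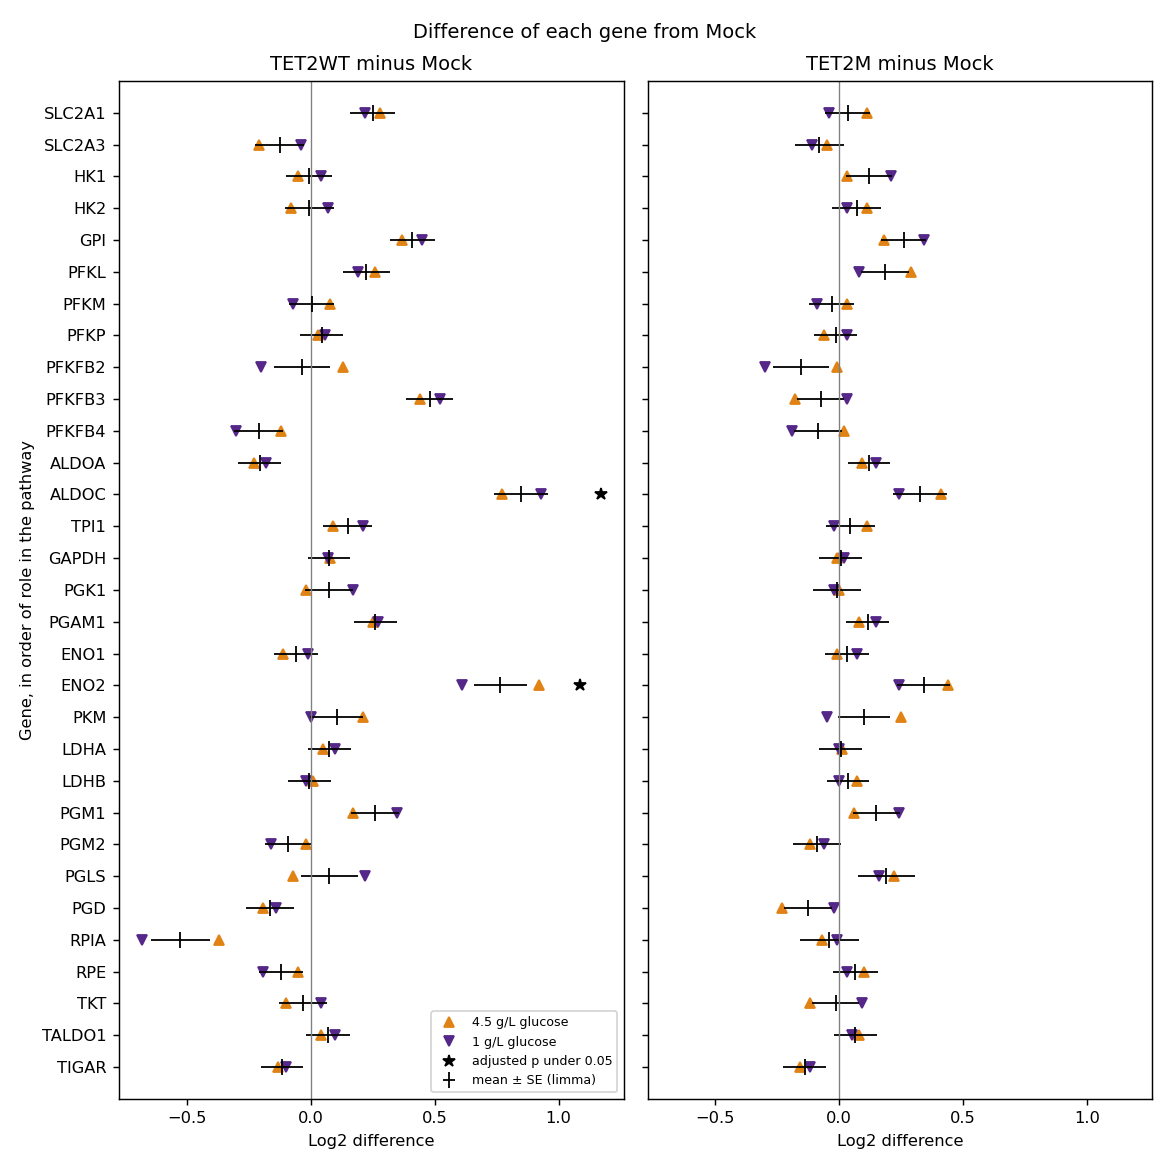
Difference from Mock (log2) of the 31 genes in TET2WT (left) and TET2M (right), with the value at 4.5 g/L and at 1 g/L glucose as triangles and the mean ± SE (limma) as a cross; stars mark adjusted p under 0.05. ALDOC and ENO2 stand out on the left at 0.85 and 0.77, and no gene is starred on the right.

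Over all 31 members, ALDOC and ENO2 included, differences between TET2WT and Mock ran both ways. Their median was 0.045, against -0.01 over all genes, and 8 had an unadjusted p under 0.05 (20.2% of all genes). Of the members 17 were positive and 14 negative, 54.8% and 45.2%, against 47.1% and 51.8% of all genes. In lower glycolysis 7 of 9 were positive and 2 negative, with a median of 0.105. In the pentose phosphate group with TIGAR 2 of 7 were positive and 5 negative, with a median of -0.115. GPI read 9.55 and 9.65 in TET2WT, 9.36 and 9.54 in TET2M, and 9.18 and 9.20 in Mock, a difference of 0.41 ± 0.091 between TET2WT and Mock (adjusted p = 0.0719, limma). PFKFB3 had 0.48 ± 0.096 (adjusted p = 0.0536, limma) and RPIA, which makes ribose 5-phosphate, had -0.53 ± 0.12 (adjusted p = 0.0731, limma). Smaller positive differences were those of SLC2A1 (0.25), PFKL (0.23), PGAM1 (0.26) and PGM1 (0.26), and smaller negative ones those of PFKFB4 (-0.21) and ALDOA (-0.21). None of these 9 passed. Isoforms of 1 enzyme differed in sign: ALDOC was higher in TET2WT while ALDOA had a negative difference, also in both of its other probe sets (-0.17 and -0.39). In the same comparison the keratin gene KRT14 read 4.55 and 3.89 in TET2WT against 6.86 and 6.38 in Mock, and the fibroblast marker LUM 3.74 and 3.11 against 4.63 and 4.34. KRT14 was the 1 of 4 keratinocyte markers, and LUM the 1 of 5 fibroblast markers, that lay below Mock at both concentrations, while the fibroblast gene COL1A1 lay above it at both (4.81 and 4.48 against 4.18 and 4.43). Summed over its list, the keratinocyte level was 9.44 and 9.45 in TET2WT against 9.62 and 9.56 in Mock (log2 of summed linear values). The summed fibroblast level was 5.95 and 5.68 against 6.02 and 5.97. Of 7 melanocytic markers, 2 lay below Mock at both concentrations and 1 above, with MITF at 6.40 and 6.30 against 6.96 and 6.93. Of 5 markers of an undifferentiated melanoma state, 3 lay below Mock at both and 1 above. The part of these markers in the differences was not tested.

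**Figure D4:**
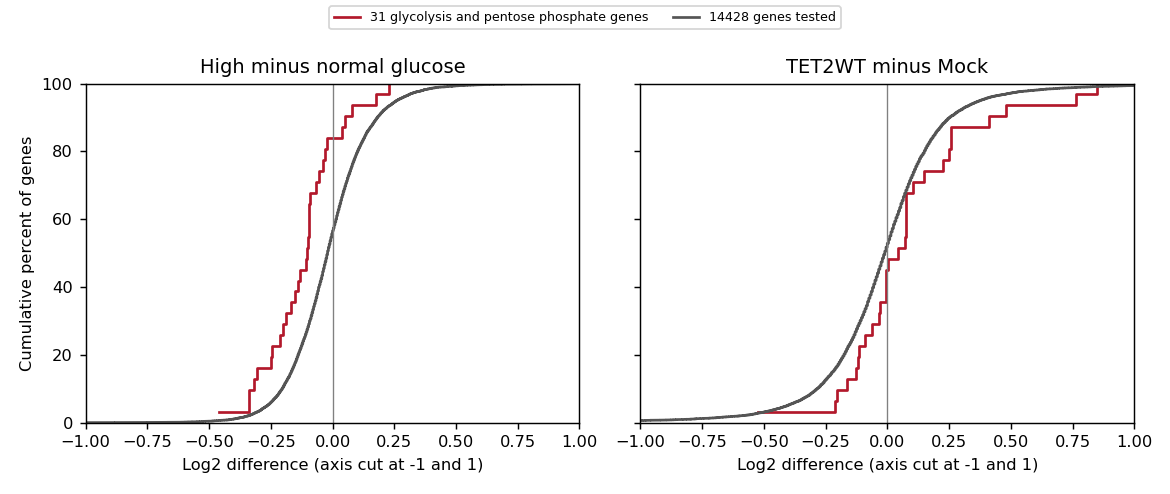
Cumulative percent of genes against the log2 difference for the 31 genes and for the 14428 genes tested, for high minus normal glucose (left) and TET2WT minus Mock (right). On the left the curve of the 31 genes lies left of that of all genes (medians -0.10 and -0.02), and on the right the curves run close except for the few genes at the upper end.

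TET2M against Mock gave no member that passed in limma (0 of 31; 0.0970% of all genes). An unadjusted p under 0.05 was found for 3 members (9.51% of all genes), ENO2 at 0.34 ± 0.11 (adjusted p = 0.419), ALDOC at 0.33 ± 0.11 (adjusted p = 0.441) and GPI at 0.26 ± 0.091 (adjusted p = 0.459). None was 1.5-fold apart at both concentrations (0.513% of all genes). The median over the members was 0.035, against -0.02 over all genes. The TET2M and TET2WT differences share the Mock arrays, so they are set side by side only: for ALDOC 0.33 and 0.85, and for ENO2 0.34 and 0.77.

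Set against TET2M, TET2WT had higher PFKFB3, the 1 member of 31 that passed in limma (3.30% of all genes). PFKFB3 read 8.12 and 8.44 in TET2WT at high and normal glucose, 7.50 and 7.95 in TET2M, and 7.68 and 7.92 in Mock. TET2WT stood above the other lines at either concentration, by 0.62 and 0.49 over TET2M. The difference from TET2M was 0.56 ± 0.096, or 1.47-fold (adjusted p = 0.0414, limma), while TET2M and Mock differed by -0.075. The call was lost when any 1 array was left out, as was every other call over all genes in this comparison. The differences then lay between 0.47 and 0.64. An unadjusted p under 0.05 was found for 5 members (17.6% of all genes). The other 4 were ALDOC with 0.53 ± 0.11 (adjusted p = 0.0682, limma), ENO2 with 0.43 ± 0.11 (adjusted p = 0.113, limma), ALDOA with -0.33 ± 0.086 (adjusted p = 0.127, limma) and RPIA with -0.49 ± 0.12 (adjusted p = 0.105, limma). SLC2A1 had 0.22. No member was 1.5-fold apart at both concentrations (2.40% of all genes), and the median over the members was 0.025.

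The 3 lines kept 1 order at both concentrations for a few members. TET2WT lay above TET2M and TET2M above Mock for 5 of 31, GPI, ALDOC, PGAM1, ENO2 and PGM1, where 4.69% of all genes had that order. The opposite order was seen for 1 member, RPIA, and for 7.69% of all genes. RPIA read 6.92 and 6.73 in TET2WT, 7.22 and 7.40 in TET2M, and 7.29 and 7.41 in Mock. TET2M and Mock lay within 0.07 of each other at both concentrations, closer than the standard error of 0.12.

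Whether the response to glucose differed in TET2WT was tested against the mean response of TET2M and Mock. In limma 0 of 31 members passed, as did 0% of all genes, and 0 members had an unadjusted p under 0.05 (9.18% of all genes). None differed 1.5-fold from both other lines (1.92% of all genes). The largest differences in response were those of RPIA, 0.34 ± 0.10 (adjusted p = 0.531, limma), PGLS, -0.32 ± 0.10 (adjusted p = 0.531, limma), and ALDOC, -0.25 ± 0.13 (adjusted p = 0.585, limma). RPIA had 0.19 in TET2WT at high minus normal glucose, -0.18 in TET2M and -0.12 in Mock. PGLS read 8.23 and 8.61 in TET2WT at high and normal glucose, 8.52 and 8.55 in TET2M, and 8.30 and 8.39 in Mock. Of its other probe sets 2 gave positive differences in response, 0.26 and 0.35, so the sign depended on the probe set. ENO2 (0.21), SLC2A3 (-0.20) and PGK1 (-0.20) had smaller ones. This model left 1 residual degree of freedom.

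Several genes were read by more than 1 probe set. Of 34 other probe sets of 17 members above the low level, 26 had the sign of the one used in the glucose comparison. The same held for 28 when TET2WT was set against Mock, for 25 when TET2M was, for 25 between TET2WT and TET2M, and for 22 in the response. For glucose the sign differed in a probe set of PFKFB2, TPI1, PGK1, ENO1, PKM, PGM2, PGLS and RPE. For TET2WT against Mock it differed, or the difference was 0, in a probe set of PFKL, ENO1, LDHB, PGM2, PGD and TKT. Those of PFKL, PFKFB2, ALDOA, PGK1, ENO1, PGM2 and RPE did so for TET2M against Mock, and those of PFKL, PFKFB2, PGM2, PGLS, PGD and TKT for TET2WT against TET2M. For the response they belonged to PFKL, PFKFB2, PFKFB4, ALDOA, TPI1, PKM, LDHB, PGLS, RPE and TKT. ALDOC, ENO2, PFKFB3, GPI and RPIA have 1 probe set each above the low level, so their values had no such check. Over all 65 probe sets of the members above the low level, 52 had a negative glucose difference, where 55.7% of all genes did. The share over all probe sets was not computed. Several of the 65 read the same gene, so this count is not separate from that over genes.

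A further list of 50 genes covered other carriers and isoenzymes, other pentose phosphate genes and the entry of pyruvate into mitochondria, and 38 of them were tested. For glucose 0 of 38 passed in limma (0.00693% of all genes), with 1 at an unadjusted p under 0.05 (15.4% of all genes). Negative differences were seen for 21 of 38, 55.3% against 55.7% of all genes. Their median was -0.022 against -0.02, so sign and median were close to those of all genes. Over the 5 comparisons PDK4 alone passed, in TET2WT against Mock, where 1 of 38 is a smaller share than the 4.21% of all genes. PDK4 encodes a kinase that switches off the pyruvate dehydrogenase complex and so holds back pyruvate from oxidation. It read 5.46 and 6.21 in TET2WT at high and normal glucose, 4.73 and 4.71 in TET2M, and 4.59 and 4.41 in Mock. TET2WT exceeded Mock by 1.34 ± 0.22, or 2.52-fold (adjusted p = 0.0323, limma), at 0.87 with high and 1.80 with normal glucose. This call too was lost when any 1 array was left out (differences of 0.91 to 1.76), as were nearly all calls over all genes. TET2WT and TET2M differed by 1.12 ± 0.22 (adjusted p = 0.0604, limma). The other pyruvate dehydrogenase kinase genes had 0.49 (PDK1), 0.35 (PDK2) and 0.47 (PDK3) against Mock in TET2WT, and none passed.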

How the data were processed

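RNA of the A2058 lines was hybridised to 6 Affymetrix arrays, per the labels. The authors deposited log2 values per probe set, for which the submitters' processing notes name Affymetrix Expression Console. Its version and how it summarised and background-corrected the probes are not stated there. Their range gave the log base. Once sorted, no 2 columns lay more than 0.12 apart, so they had been scaled alike before deposit, and nothing further was normalized.

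Of 54675 probe sets, 62 were controls. The platform annotation gave 1 gene symbol for 41097, several for 1801 and none for 11777. For 41037 single-gene probe sets the symbol was taken by matching the gene ID to RefSeq, whether or not it changed. For 54 the annotation symbol was kept, with controls left out. Probe sets with several symbols were not used, including 3 that name a member and another gene. Probe sets with a mean under the 40th percentile (2.64, the low level) were left out, and each gene was read from its probe set with the highest mean.

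The main model was fitted with limma 3.58.1 (lmFit and eBayes) in R 4.3.3, with the data.table package (version 1.17.8), over all 6 arrays with terms for line and glucose. Its residual degrees of freedom were 2, with 3.97 prior ones. For the response, TET2WT had its own glucose term, with 1 residual and 1.72 prior degrees of freedom. Tests were two-sided, with Benjamini-Hochberg adjustment across the whole table. Both models were tested beforehand on simulated data with known changes. Figures were drawn with matplotlib 3.10.9 in Python 3.11.15. Promoter windows came from RefSeq (GRCh38.p14).

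The members and lists were chosen with earlier results of these data known. All members are named with their range. Values on every array are given for members that pass and for the 3 with the largest difference in each comparison, and single differences mainly from 0.2 upward. Alternatives were other probe set choices, filters, normalizations, variance models, terms, a 1.5-fold rule, and leaving out each array or line.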

Additional observations from a re-analysis of the deposited data

How the results depend on the processing

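Every call on a member rests on the pooled spread of 6 arrays. Counts of members past the threshold: for glucose, 0 became 5 once the moderated variance followed an intensity trend (ALDOC, PFKFB3, PFKFB4, PGD and TKT, all lower; 3.97% of all genes). For TET2WT against Mock, 2 became 4 with a filter at the 60th percentile (791 of 10920 genes, 7.24%) and 8 with the trend (6 higher, 2 lower; 10.6% of all genes). It became 3, with PFKFB3, when probe sets were averaged (4.07% of genes) and under quantile (4.70%) or cyclic loess normalization (4.80%). For TET2WT against TET2M, 1 became 2 with that filter (5.27% of genes) and 5 with the trend (8.66%), and 0 under the 1.5-fold rule. In both comparisons the count was 0 to 0 with any 1 array left out, 0 without the line not compared, and 0 with no glucose term. With no glucose term, 2.20% of all genes passed for TET2WT against Mock and 1.85% for TET2WT against TET2M. For glucose the count of members was 0 with no line term, as was that of all genes. Fewer arrays enter the fits that leave out arrays or lines, and the cause of the other changes was not tested. Over the alternatives run, the adjusted p of ALDOC in TET2WT against Mock ran between 8.72e-05 and 0.327, that of ENO2 between 0.000949 and 0.327, and that of PFKFB3 in TET2WT against TET2M between 0.000659 and 0.446, with no change of sign.

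Over all genes, the glucose count of 1 became 5 with the mean of a gene's probe sets, 3 with probe sets lacking an _x_at or _s_at suffix, 2 with no filter, 5 with the filter at the 60th percentile, 5 with quantile normalization, 3 with cyclic loess, 573 with the trend, 31 under the 1.5-fold rule, 0 with no line term, 0 without each line and 0 to 0 with 1 array left out. The count of 608 for TET2WT against Mock became 1528 with the trend, 318 with no glucose term, 16 without TET2M and 0 to 16 with 1 array left out. For TET2M against Mock, 14 became 25 with the mean of probe sets, 22 with the filter at the 60th percentile, 149 with the trend, 7 with no glucose term, 74 under the 1.5-fold rule, 0 without TET2WT and 0 to 0 with 1 array left out. For TET2WT against TET2M, 476 became 1249 with the trend, 267 with no glucose term, 0 without Mock and 0 to 0 with 1 array left out. For the response, 0 became 277 under the 1.5-fold rule.

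The median glucose difference of the members stayed between -0.15 and -0.08 over 18 settings, with 23 to 27 members negative. Among single genes, 6 values changed sign. PFKFB2 had a glucose difference of 0.15 with probe sets lacking the suffix, and PGLS a difference in response of 0.056 when its probe sets were averaged. The glucose difference of TKT was -0.023 with probe sets lacking the suffix, and that of PGD -0.17 with averaged probe sets. PDK4 had a glucose difference of 0.10 without the TET2WT line. Leaving out either TET2WT array gave the same estimate, since the array that remained had no partner. These are 3 of the 6 sign changes but 1 estimate. Likewise, TET2WT against Mock without either TET2M array equals the fit without TET2M. With 1 array left out, the glucose difference of PDK4 ran between -0.365 and 0.10. Its difference between TET2M and Mock ran between -0.0525 (without the Mock array at normal glucose) and 0.4925. The response model cannot leave out an array or a line, since no residual degree of freedom would remain. The labels carry no replicate numbers; the glucose comparison is paired by line through its line term, and the line comparisons are paired by medium through the glucose term. The fits without these terms are given above.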
